A study of Mus musculus with 112 samples.

Results

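Hearts of 129S1/SvImJ mice that had eaten a caloric restriction (CR) diet were compared with hearts of 129S1/SvImJ mice on the control diet, gene by gene and function by function. 129S1/SvImJ is an inbred mouse strain. Its 16 arrays, 8 control and 8 CR, were taken by their labels out of 112 arrays that cover 7 strains of male mice, and each array held the heart RNA of 1 mouse. The animals came from The Jackson Laboratory, were housed singly, and ate 84 kcal per week of a purified diet until the diets were split at 8 weeks of age. Both groups went a night without food and gave their hearts at 22 weeks, 14 weeks into the diets. During the experiment the ration was cut a second time for CR mice of this strain and of C57BL6/J. Balbc/J mice got larger rations than the other strains in both groups, control and CR. The diets were therefore not the same in all strains. No gene was altered by design in any group. The design asks how cardiac gene expression changes with CR, and how far a change in one strain is shared by the others.

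The heart draws most of its energy from fatty acids, and it shifts between fatty acids and glucose with the feeding state. The nuclear receptor PPAR-alpha is activated by fatty acids and raises the genes for their uptake, storage and oxidation, and fasting is a well known way to activate it. Pyruvate dehydrogenase kinase 4 (Pdk4), a classical target of that receptor, blocks the entry of glucose carbon into the mitochondrion. The circadian clock, in which Arntl (BMAL1) and Clock drive the Per, Cry and Nr1d1 genes that repress them, also sets the rhythm of many metabolic genes in heart, and feeding time is one of its cues.

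Values are log2 signals, so a difference of 1 is a doubling of the signal, and dim genes are compressed. Within a group the 16 arrays correlated at 0.991 to 0.996 with the mean of the rest of their group, and no array stood apart. Markers of ventricular cardiomyocytes were bright in every heart, with a mean log2 signal of 11.8 to 11.9 in control hearts and 11.7 to 11.9 in CR hearts. Atrial markers had means of 6.6 to 6.81 and 6.66 to 6.77. In the whole series 1 array, a CR heart of DBA/2J, correlated at only 0.262 with its group and was kept out of every comparison between strains. A control heart of CBA/J, replicate 1, correlated at 0.895 and was kept, and every other array reached at least 0.96. The other strains were fitted on their own arrays in the same way, which called 0 genes in Balbc/J, 2 in DBA/2J, 3 in CBA/J, 11 in C3H/HeJ, 50 in C57BL6/J and 181 in B6C3F1/J. These counts were not tested against each other, and the median SE of a difference was 0.0836 in 129S1/SvImJ against 0.0838 to 0.125 in the others.

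Of 19938 genes tested, 1361 passed an adjusted p of 0.05 (limma, Benjamini-Hochberg) in 129S1/SvImJ. CR hearts were higher in 774 genes (3.88% of genes tested) and lower in 587 (2.94%). Most shifts were small: the median called gene differed 1.26-fold, 130 differed at least 1.5-fold and 25 at least 2-fold, 9 of them higher and 16 lower. In 365 genes (1.83%) no control heart overlapped a CR heart, and 359 of these were called. The count fell to 459, with 282 higher and 177 lower, when the spread was estimated over all 14 groups of the series instead of the 16 hearts. It was 1114 without control replicate 8 and CR replicate 2, the arrays that most often lay far from the rest of their group. Among the 1361 called genes, 32.8% had the same sign in all other 6 strains, against 7.54% of all genes.

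The largest rises were in genes of iron uptake, haem synthesis, tubulin and membrane current. Tfrc, the transferrin receptor that carries iron into cells, ran from 5.81 to 6.20 in control hearts (median 5.99) and from 6.83 to 9.54 in CR hearts (median 9.10). It was 6.22-fold higher under CR, a log2 difference of 2.64 ± 0.32 (SE, adjusted p = 3.15e-05). No hearts of the groups overlapped, and within the CR group 2 hearts were far below the other 6. Alas1, which catalyses the first committed step of haem synthesis, ran from 8.15 to 8.75 in control hearts (median 8.39) and from 9.38 to 10.38 in CR hearts (median 9.89), a difference of 1.49 ± 0.13 (SE, adjusted p = 2.08e-06). The groups lay fully apart.

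Tuba4a, an alpha tubulin, ran from 9.13 to 9.46 in control hearts (median 9.34) and from 10.43 to 11.41 in CR hearts (median 11.26). All CR hearts were above all control hearts, and the difference was 1.77 ± 0.13 (SE, adjusted p = 2.53e-07). Its relative Tuba8 ran from 8.95 to 9.65 in control hearts (median 9.29) and from 9.77 to 10.79 in CR hearts (median 10.54), a difference of 1.15 ± 0.15 (SE, adjusted p = 7.17e-05), also without overlap. Kcne1, an accessory subunit of the slow delayed rectifier potassium channel, ran from 4.97 to 5.68 in control hearts (median 5.52) and from 5.73 to 7.38 in CR hearts (median 7.15). Its difference was 1.42 ± 0.19 (SE, adjusted p = 9.94e-05). Acta2, the actin of smooth muscle, ran from 9.10 to 9.39 in control hearts (median 9.27) and from 9.48 to 11.28 in CR hearts (median 10.81), with 2 CR hearts close to the control level, and its difference was 1.37 ± 0.21 (SE, adjusted p = 0.000356).

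The size of these rises differed from mouse to mouse, and the same CR hearts were low in several genes. Replicates 6 and 8 were the lowest CR hearts for Tfrc (6.83 and 7.16, with the other 6 at 8.58 or more), Acta2 (9.48 and 9.67), Tuba4a (10.5 and 10.4), Tuba8 (9.77 and 9.82), Alas1 (9.38 and 9.39) and Kcne1 (6.33 and 5.73). For Kcne1 the lower of them was within 0.1 of the top control heart. Replicate 6 was also the CR heart nearest to the controls for Pdk4, at 12.1, and for Angptl4, at 6.79. Clock genes differed in this. Replicates 6 and 8 did not stand apart for Clock, at 7.68 and 7.62 among CR values of 7.49 to 7.81, nor for Tef, at 8.26 and 8.36 among 8.02 to 8.36. For Dbp they were again the lowest CR hearts, at 8.44 and 8.67. Replicate 6 lay inside the range of the control hearts for Dbp, 8.16 to 8.58. The labels give nothing that sets these mice apart, such as body mass or food intake, and they were kept in the main comparison. Without replicate 6 1521 genes were called, and without replicate 8 1426.

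**Figure D1:**
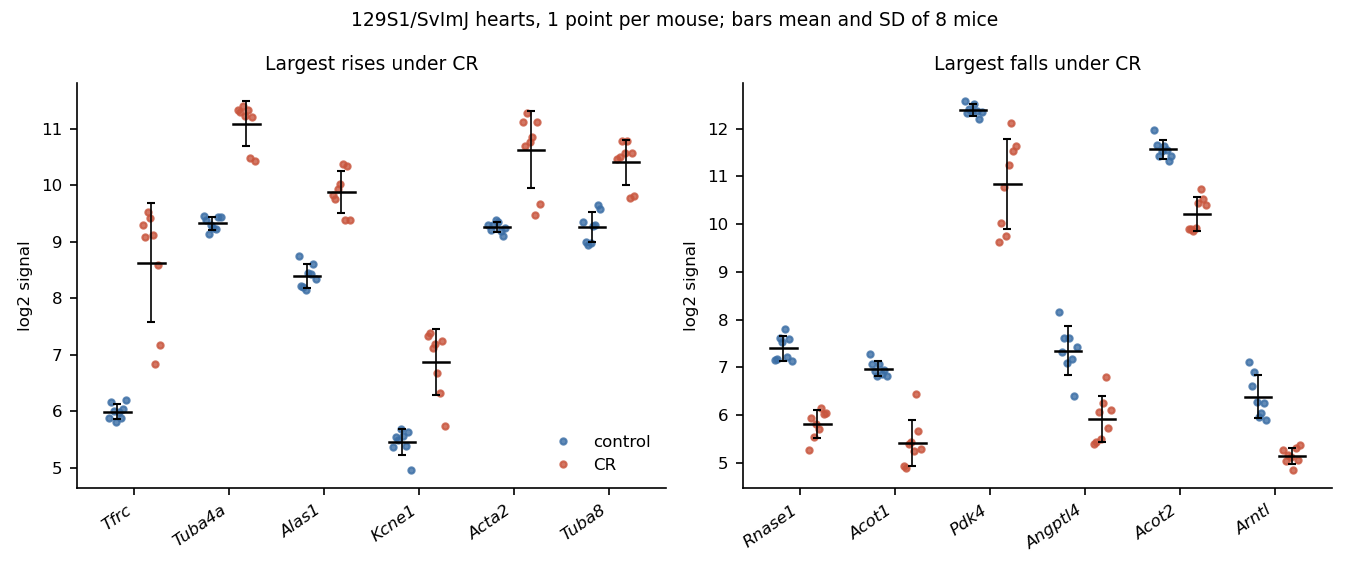
Log2 signals (y axis) of the 6 genes with the largest rises (left) and the 6 with the largest falls (right) in 129S1/SvImJ hearts, 1 point per mouse, with the mean and SD of 8 control and 8 CR mice. Tfrc, Pdk4 and Acta2 spread widely among CR hearts and little among control hearts, and of the 12 genes Angptl4 is the one in which the groups overlap.

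The other large rises were smaller than these. Wfdc1, a secreted protease inhibitor-like protein, rose by 1.02 ± 0.12 (SE, adjusted p = 3.15e-05) and Cbr2, a carbonyl reductase, by 1.01 ± 0.12 (SE, adjusted p = 1.99e-05). Fbxl22, a ubiquitin ligase subunit of the sarcomere, rose by 0.97 ± 0.13 (SE, adjusted p = 7.63e-05) and Mylk4, a myosin light chain kinase of muscle, by 0.88 ± 0.12 (SE, adjusted p = 0.000103). Tmx2, a thioredoxin-related membrane protein, rose by 0.82 ± 0.11 (SE, adjusted p = 6.45e-05). Retnla and Car3 rose too, by 0.92 ± 0.20 (SE, adjusted p = 0.00695) and 1.08 ± 0.26 (SE, adjusted p = 0.0120). The top CR value of Retnla, a secreted protein of alternatively activated macrophages, came from 1 heart far above the others, and Car3, a carbonic anhydrase of fat and muscle, overlapped between the groups.

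The largest falls were in secreted ribonuclease and in fatty acid genes. Rnase1, a ribonuclease made by endothelium, ran from 7.13 to 7.80 in control hearts (median 7.37) and from 5.26 to 6.14 in CR hearts (median 5.87), a difference of -1.59 ± 0.13 (SE, adjusted p = 2.96e-07). No hearts overlapped. In bulk tissue, fewer cells of a type and less RNA in each cell cannot be told apart, which holds for this gene and for every gene of a minor cell type below. Abhd1, a hydrolase of uncertain function, ran from 8.90 to 9.27 in control hearts (median 9.09) and from 7.58 to 8.21 in CR hearts (median 7.94) and its difference was -1.18 ± 0.092 (SE, adjusted p = 2.96e-07). Tacc2, a centrosome and microtubule protein, and BC023105, an uncharacterised gene, differed by -1.06 ± 0.21 (SE, adjusted p = 0.00367) and -1.11 ± 0.24 (SE, adjusted p = 0.00658), both with overlap between the groups.

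The response was then read through 51 gene lists. The lists and their members were chosen with earlier results of these data known. Counts and shares of a list therefore describe the response and are not independent evidence of it. Among the members are the 7 heart genes that the study took on to PCR (Tfrc, Aox1, Tuba8, Scd4, Alas1, Chrna2 and Retsat). These were chosen on data that include these hearts, so they cannot count as independent evidence for the direction of a list. A list is described by how many of its measured members were called in each direction and by its median, beside the 3.88% and 2.94% of all genes and the median over all genes of -0.003. Members of a list share regulation and are not independent, and no test of a list as a whole was made. Of the 261 called genes that are on a list or named here, 51 lost the call when some 1 array was left out, with an adjusted p of at most 0.0956, and such a gene is marked as borderline where it is named.

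**Figure D2:**
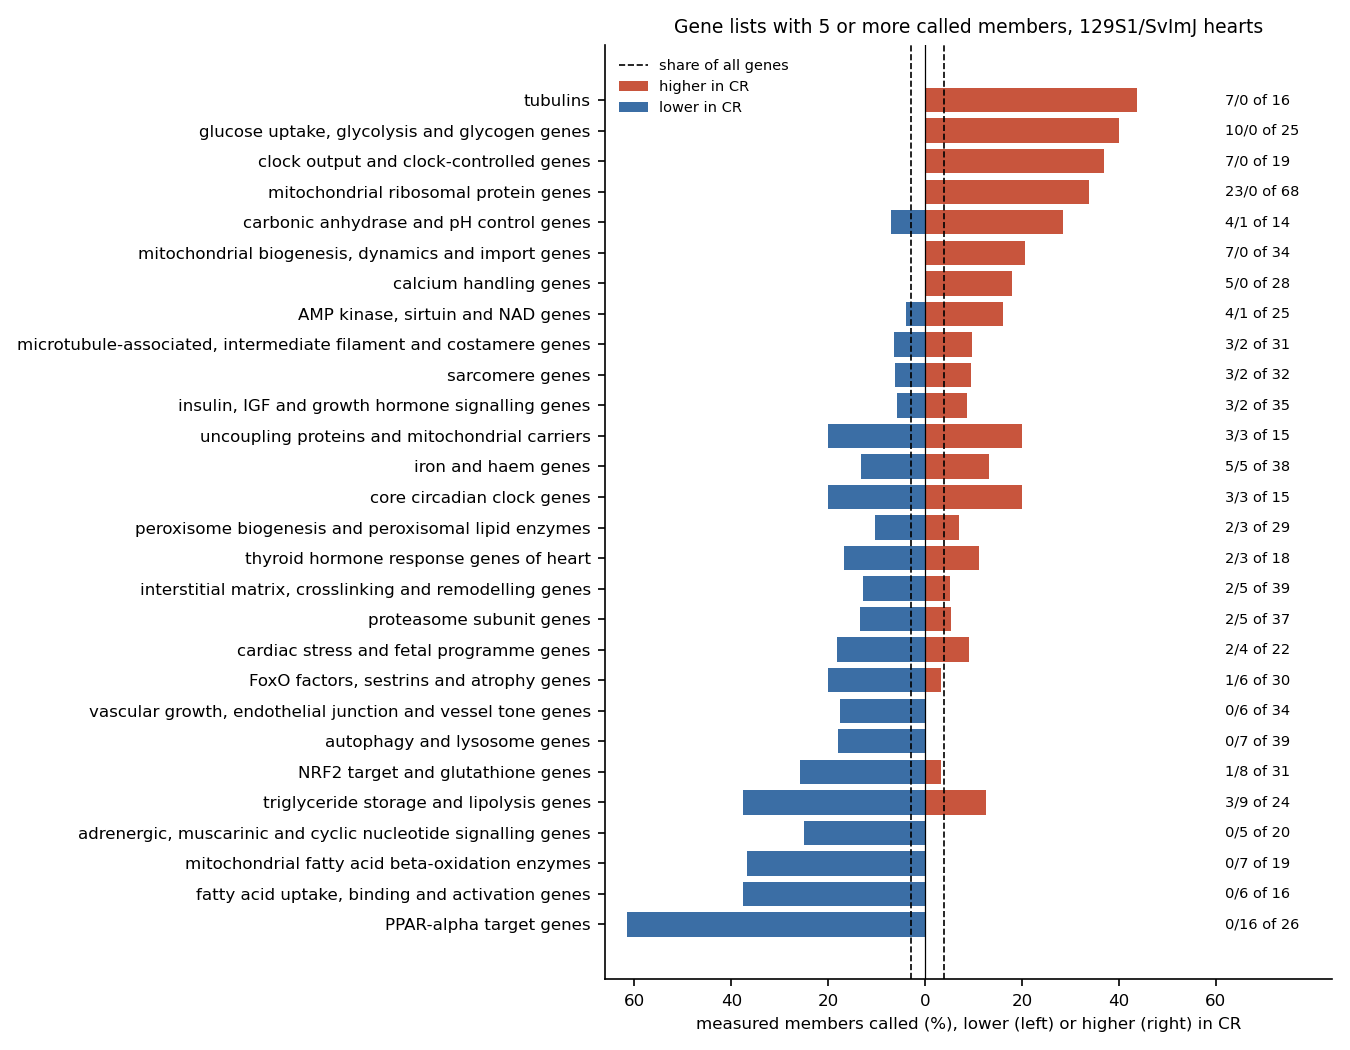
Share of measured members (x axis, percent) called lower (blue, to the left) or higher (red, to the right) in CR hearts of 129S1/SvImJ, for each of the gene lists (y axis) with at least 5 called members, and the counts higher/lower of measured members at the right. Dashed lines mark 2.94% and 3.88%, the shares of all genes, and PPAR-alpha targets lie farthest to the left with 16 of 26 lower.

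Genes that PPAR-alpha turns on were lower in CR hearts. Of 26 measured targets 16 fell and 0 rose, with a list median of -0.31, and 24 were below 0. With the spread of all 14 groups 11 were still called lower. Pdk4 ran from 12.21 to 12.57 in control hearts (median 12.38) and from 9.63 to 12.12 in CR hearts (median 11.0), a difference of -1.56 ± 0.28 (SE, adjusted p = 0.00177). Every CR heart was below every control heart, but the CR hearts ranged over more than 2 log2 units while the controls were close together. The acyl-CoA thioesterases Acot1 and Acot2, which release fatty acids from coenzyme A in cytosol and mitochondrion, were 2.95-fold and 2.56-fold lower.

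Acot1 ran from 6.81 to 7.27 in control hearts (median 6.93) and from 4.88 to 6.44 in CR hearts (median 5.35), with a difference of -1.56 ± 0.16 (SE, adjusted p = 5.88e-06). Acot2 ran from 11.33 to 11.97 in control hearts (median 11.54) and from 9.86 to 10.74 in CR hearts (median 10.15), with a difference of -1.36 ± 0.13 (SE, adjusted p = 2.55e-06). The groups did not overlap for either, and since the genes are close copies a part of their signal may be shared by the probes. Angptl4, a secreted inhibitor of lipoprotein lipase, ran from 6.40 to 8.17 in control hearts (median 7.37) and from 5.39 to 6.79 in CR hearts (median 5.90), and 1 control heart lay inside the CR range. Its difference was -1.44 ± 0.21 (SE, adjusted p = 0.000268). Ucp3, a mitochondrial carrier of muscle linked to fatty acid use, differed by -1.13 ± 0.18 (SE, adjusted p = 0.000656) with some overlap.

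Smaller falls reached other steps of the same programme. Mlycd, which breaks down malonyl-CoA and so relieves the block on fatty acid entry, was 1.77-fold lower, a difference of -0.82 ± 0.093 (SE, adjusted p = 1.69e-05). Plin2, a coat protein of lipid droplets, differed by -0.65 ± 0.081 (SE, adjusted p = 4.71e-05), and the fatty acid transporter Cd36 by -0.31 ± 0.051 (SE, adjusted p = 0.000684), both without overlap. Pex11a, Cidea, Slc25a20, Cpt1a, Txnip, Hadha, Fabp3 and borderline Plin5 were also called lower, with differences of -0.46 to -0.20. Of the members not called, Cyp4a14 was at 0.11 and Cyp4a10 at 0.053. The PPAR response element, searched in the 250 bases before each RefSeq start, was found for 0 of 21 targets and 7 of 15614 genes (0.0448%), which says only that its letters are not in these windows.

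**Figure D3:**
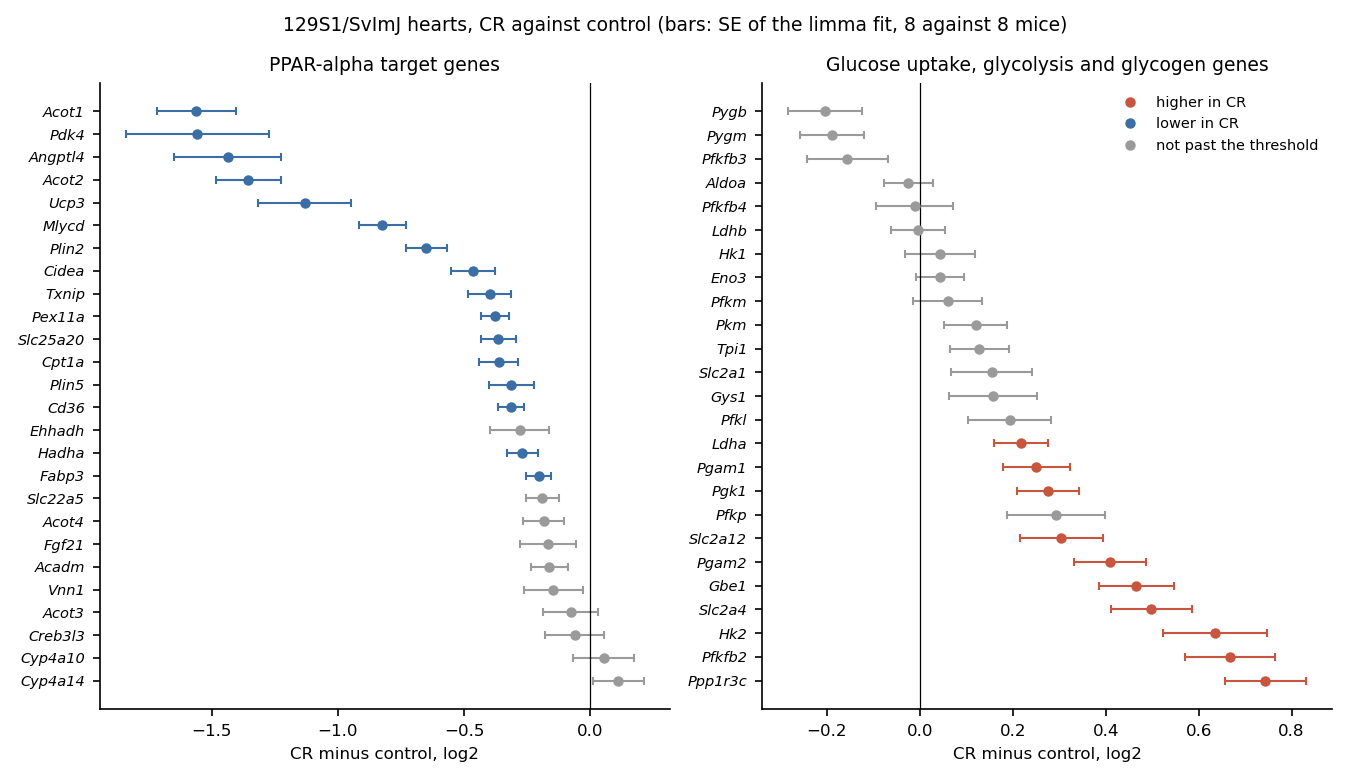
CR minus control on the log2 scale (x axis) with the SE of the fit, for all measured members of the PPAR-alpha target list (left) and of the glucose list (right), with genes called lower in blue, called higher in red and not past the threshold in grey. Of the PPAR-alpha targets 24 of 26 lie left of 0, and of the glucose genes 10 of 25 are red.

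The enzymes of mitochondrial beta-oxidation shifted less. Of 19 genes 7 fell, 0 rose and the median was -0.18, but with the spread of all 14 groups 1 was called. Among the 7, Cpt1a, Slc25a20 and Hadha had been counted with the PPAR-alpha targets already. Cpt2, the inner membrane carnitine palmitoyltransferase, differed by -0.47 ± 0.098 (SE, adjusted p = 0.00526). Etfdh, which hands electrons from these enzymes to ubiquinone, differed by -0.28 ± 0.063 (SE, adjusted p = 0.00796). Of 16 genes of fatty acid uptake, binding and activation 6 fell (median -0.13), among them the PPAR-alpha targets Cd36 and Fabp3. The largest fall was in Slc27a1, a fatty acid transport protein that also activates its cargo, which ran from 9.67 to 10.26 in control hearts (median 10.03) and from 8.72 to 9.72 in CR hearts (median 9.0) and differed by -0.93 ± 0.12 (SE, adjusted p = 9.88e-05). Fabp4, the fatty acid binding protein of capillary endothelium and fat cells, differed by -0.50 ± 0.065 (SE, adjusted p = 7.56e-05), and Vldlr, a lipoprotein receptor, by -0.66 ± 0.095 (SE, adjusted p = 0.000204).

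Triglyceride handling moved in both directions. Of 24 genes 9 fell and 3 rose (median -0.068). Those that fell include Plin2, Cidea and borderline Plin5, which are PPAR-alpha targets too. The lipases that open the store fell: Pnpla2, the first triglyceride lipase, ran from 10.47 to 10.93 in control hearts (median 10.54) and from 9.24 to 10.12 in CR hearts (median 9.76) and differed by -0.84 ± 0.10 (SE, adjusted p = 4.71e-05). Lipe, the hormone-sensitive lipase, differed by -0.84 ± 0.11 (SE, adjusted p = 5.52e-05). The acyltransferases of glycerolipid synthesis Gpam and Agpat3 differed by -0.82 ± 0.10 (SE, adjusted p = 4e-05) and -0.54 ± 0.053 (SE, adjusted p = 4.61e-06). No control heart overlapped a CR heart in these 4 genes. Fitm1 (0.45) and Dgat2 (0.43), which help to form lipid droplets, and Abhd5 (0.24), the activator of Pnpla2, rose. In the fit over 14 groups 5 members were called lower and 0 higher.

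Glucose genes were higher. Of 25 genes of glucose uptake, glycolysis and glycogen 10 rose and 0 fell, with a median of 0.16. Ppp1r3c, which brings protein phosphatase to glycogen, ran from 8.15 to 8.91 in control hearts (median 8.55) and from 9.06 to 9.41 in CR hearts (median 9.31) and differed by 0.74 ± 0.088 (SE, adjusted p = 2.66e-05). Pfkfb2, the cardiac enzyme that makes the activator of phosphofructokinase, differed by 0.67 ± 0.096 (SE, adjusted p = 0.000215). Hk2, the hexokinase that insulin induces, ran from 7.95 to 8.61 in control hearts (median 8.19) and from 8.24 to 9.18 in CR hearts (median 8.87) and differed by 0.64 ± 0.11 (SE, adjusted p = 0.00122), with overlap. The insulin-responsive glucose transporter Slc2a4 differed by 0.50 ± 0.087 (SE, adjusted p = 0.00117), and the glycogen branching enzyme Gbe1 by 0.47 ± 0.081 (SE, adjusted p = 0.00115). Pgam2, Pgk1 and, as borderline calls, Ldha, Pgam1 and Slc2a12 rose by 0.22 to 0.41. Under the spread of 14 groups 3 of these 10 were called.

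At the entry of pyruvate into mitochondria 1 of 14 genes rose and 1 fell (median 0.0085). The gene that fell was Pdk4, and the one that rose, Pdp2, encodes the phosphatase that undoes what the kinase does, with a difference of 0.35 ± 0.08 (SE, adjusted p = 0.00888). Of 26 genes of ketone and branched-chain amino acid breakdown 2 rose and 1 fell (median 0.05). Those that rose, Slc16a1 (0.50 ± 0.091 SE, adjusted p = 0.00179) and Slc16a7 (0.40 ± 0.09 SE, adjusted p = 0.00785), carry lactate, pyruvate and ketone bodies across the cell membrane. Bckdha, a subunit of the branched-chain dehydrogenase, fell by 0.32 ± 0.08 (SE, adjusted p = 0.0192).

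Mitochondrial ribosomal protein genes held the most rises by count, in the longest list. Of 68 genes 23 rose and 0 fell, 5 were below 0 and the median was 0.17. The largest rise was in Mrps22, which ran from 6.86 to 7.46 in control hearts (median 7.16) and from 7.36 to 8.35 in CR hearts (median 7.77) and differed by 0.68 ± 0.12 (SE, adjusted p = 0.00162). Mrpl18 ran from 8.37 to 8.72 in control hearts (median 8.59) and from 8.89 to 9.46 in CR hearts (median 9.15), without overlap, and differed by 0.57 ± 0.081 (SE, adjusted p = 0.000178). Mrpl19, Mrpl45 and Mrpl39 differed by 0.55, 0.49 and 0.42. With the spread of all 14 groups 9 were called higher. The share that rose, 33.8%, was below that of tubulins (43.8%), glucose genes (40%) and clock output genes (36.8%). Cytosolic ribosomal protein genes had a median of 0.13, and 3 of 47 rose (Rpsa, Rplp2 and borderline Rpl6) while 0 fell.

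Few genes of the respiratory chain were called, although the share that rose was above the 3.88% of all genes. It was 5.88% for complex I and 7.32% for the other complexes. Of 34 complex I genes 2 rose, with a median of 0.08, namely Ndufc2 (0.30 ± 0.056 SE, adjusted p = 0.00191) and borderline Ndufs6. Of 41 genes of the other complexes 3 rose (median 0.062), namely Sdhd (0.35 ± 0.066 SE, adjusted p = 0.00204), Cox6a1 and Cox8a. Sdhd was also the 1 of 19 citric acid cycle genes that was called (median -0.013). No member of these lists fell. Of 34 genes of mitochondrial biogenesis, dynamics and import 7 rose and 0 fell (median 0.071). The coactivator Ppargc1a, a driver of mitochondrial biogenesis, ran from 9.31 to 9.67 in control hearts (median 9.51) and from 9.49 to 10.14 in CR hearts (median 9.94) and differed by 0.36 ± 0.089 (SE, adjusted p = 0.0154). Its relative Ppargc1b differed by 0.37 ± 0.099 (SE, adjusted p = 0.0250), a borderline call, and the mitochondrial deacetylase Sirt3 by 0.43 ± 0.076 (SE, adjusted p = 0.00128). In the fit over 14 groups 2 of the 7 were called. Of 15 uncoupling proteins and carriers 3 rose and 3 fell (median 0.064). Slc25a5, an ADP/ATP carrier, rose by 0.45 ± 0.069 (SE, adjusted p = 0.000349), and Slc25a33, a pyrimidine nucleotide carrier, by 0.61 ± 0.13 (SE, adjusted p = 0.00502).

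Fatty acid desaturases moved apart from each other. Of 22 genes of fatty acid synthesis and desaturation 3 fell and 1 rose (median 0.0019). Scd4, a desaturase of the heart, ran from 5.59 to 6.63 in control hearts (median 6.43) and from 4.56 to 5.47 in CR hearts (median 5.12), a difference of -1.20 ± 0.15 (SE, adjusted p = 3.5e-05) without overlap. Its relative Scd2 ran from 6.48 to 6.98 in control hearts (median 6.53) and from 6.74 to 7.43 in CR hearts (median 7.29) and rose by 0.61 ± 0.091 (SE, adjusted p = 0.000322). The CR mean of Scd4, 5.10, lay under a log2 signal of 5.16, below which genes were counted as dim and differences are compressed. Scd1 was at 0.79 ± 0.25 (SE, adjusted p = 0.0590) and not called, and its control hearts alone spanned 6.95 to 8.67. Acacb, which makes the malonyl-CoA that restrains fatty acid entry, fell by 0.52 ± 0.12 (SE, adjusted p = 0.0113), the same direction as Mlycd, which removes it. In cholesterol synthesis and uptake 1 of 19 genes fell, Fdft1 (-0.39 ± 0.083 SE, adjusted p = 0.00592), and 0 rose (median 0.059).

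Iron and haem genes moved in both directions. Of 38 genes 5 rose, 5 fell and 28 were not called (median 0.048). Those that rose, besides Tfrc and Alas1, were the ferrireductase Steap3 (0.32 ± 0.071 SE, adjusted p = 0.00839), the importer Slc11a2 (borderline, 0.29 ± 0.077 SE, adjusted p = 0.0241) and the iron-regulatory protein gene Aco1 (0.26 ± 0.064 SE, adjusted p = 0.0177). Among those that fell was Slc25a28, a mitochondrial iron importer (-0.24, borderline). Slc40a1, ferroportin, the only known iron exporter of cells, ran from 7.40 to 7.99 in control hearts (median 7.93) and from 6.30 to 7.12 in CR hearts (median 6.88), a difference of -1.05 ± 0.11 (SE, adjusted p = 5.88e-06) without overlap. The ferroxidase Cp fell by 0.56 ± 0.082 (SE, adjusted p = 0.000227), ferritin light chain Ftl1 fell by 0.36 ± 0.079 (SE, adjusted p = 0.00714) and haem oxygenase Hmox1 fell by 0.44 ± 0.11 (SE, adjusted p = 0.0181). The ferritin heavy chain Fth1 (-0.068) and the metal importer Slc39a14 (0.11) were not called.

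Genes of glutathione and of the NRF2 response, which defends cells against oxidants and foreign compounds, were lower. Of 31 genes 8 fell and 1 rose, with a median of -0.094. Gclm, the regulatory subunit of the enzyme that limits glutathione synthesis, ran from 8.78 to 9.36 in control hearts (median 9.02) and from 7.62 to 8.39 in CR hearts (median 7.84), a difference of -1.10 ± 0.11 (SE, adjusted p = 6.19e-06) without overlap. Aox1, an aldehyde oxidase, ran from 8.40 to 8.78 in control hearts (median 8.59) and from 7.02 to 8.03 in CR hearts (median 7.41), a difference of -1.11 ± 0.11 (SE, adjusted p = 6.25e-06), again without overlap. Mgst1, a membrane glutathione transferase, fell by 0.71 ± 0.11 (SE, adjusted p = 0.000307). Gsr (-0.24), Srxn1 (-0.27), Nqo1 (-0.23, borderline), Me1 (-0.31) and Hmox1 fell by less. Gsta3, an alpha class glutathione transferase, was the member that rose, from 5.88 to 6.55 in control hearts (median 6.24) and from 6.51 to 7.34 in CR hearts (median 6.85), a difference of 0.73 ± 0.12 (SE, adjusted p = 0.000608). Under the spread of 14 groups 4 were called lower.

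NRF2 binds the antioxidant response element, searched here as TGACNNNGC on both strands in the 250 bases before each start in RefSeq's mouse promoter table (build GRCm38.p6). It was present for 7 of 26 members of this list with a promoter (26.9%) and for 12.5% of all 15614 genes with one. It was found for 15.5% of the genes called higher and 12.4% of those called lower. The stretches around it are shown for the 3 called members that hold it, since these genes moved in both directions, with the matched letters in capitals and the sequence read 5′ to 3′ along the gene.
Gclm, chr3:122245399-122245455, plus strand: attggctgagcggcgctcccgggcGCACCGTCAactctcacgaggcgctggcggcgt
Mgst1, chr6:138140447-138140503, plus strand: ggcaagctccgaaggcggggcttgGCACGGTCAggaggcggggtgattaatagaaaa
Gsta3, chr1:21240440-21240496, plus strand: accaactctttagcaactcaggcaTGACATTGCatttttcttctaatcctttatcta
Gclm and Mgst1 fell and Gsta3 rose, and a match does not show that a factor binds there.

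Other antioxidant genes were mixed. Of 25 dismutases, peroxidases and thioredoxin genes 2 fell and 2 rose (median 0.024). Catalase (Cat), which breaks down hydrogen peroxide in peroxisomes, ran from 11.13 to 11.41 in control hearts (median 11.26) and from 10.24 to 10.80 in CR hearts (median 10.47), a difference of -0.79 ± 0.087 (SE, adjusted p = 1.1e-05) without overlap. Gpx3, a secreted peroxidase, fell by 0.35 ± 0.082 (SE, adjusted p = 0.0121), and Gpx8 of the endoplasmic reticulum rose by 0.37 ± 0.069 (SE, adjusted p = 0.00221). Of 29 peroxisome genes 3 fell and 2 rose (median -0.033). Abcd2, a transporter of long fatty acids into peroxisomes, rose by 0.72 ± 0.072 (SE, adjusted p = 4.61e-06).

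The clock was shifted in its activator, its repressors and its outputs. Arntl ran from 5.90 to 7.11 in control hearts (median 6.25) and from 4.86 to 5.36 in CR hearts (median 5.14), a difference of -1.24 ± 0.15 (SE, adjusted p = 3.15e-05), and no hearts overlapped. Its partner Clock ran from 7.97 to 8.27 in control hearts (median 8.14) and from 7.49 to 7.81 in CR hearts (median 7.64) and fell by 0.49 ± 0.061 (SE, adjusted p = 4.71e-05), also without overlap. The CR mean of Arntl, 5.145, lay just under the 5.16 that marks dim genes, so the size of its fall may be compressed. Nr1d1, the repressor of Arntl, fell by 0.54 ± 0.098 (SE, adjusted p = 0.00162). The repressor Cry1 rose by 0.42 ± 0.074 (SE, adjusted p = 0.00139), Per3 by 0.51 ± 0.091 (SE, adjusted p = 0.00143) and Per2, a borderline call, by 0.50 ± 0.14 (SE, adjusted p = 0.0324). In all 3 of 15 core clock genes rose and 3 fell (median 0.008). The hour at which hearts were taken is not given in the sources used here, so a shift in phase and a change in amplitude cannot be told apart. Some clock signals varied with the replicate number. From replicate 1 to replicate 8 Per2 went from 6.44 to 7.39 in control hearts and from 7.11 to 7.51 in CR hearts. Arntl went from 7.11 to 5.90 in control hearts, but from 5.26 to 5.36 in CR hearts. The labels do not say what order the numbers follow, and its part here was not tested.

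Of 19 clock output and clock-controlled genes 7 rose and 0 fell, with a median of 0.18. The PAR bZIP factors, which pass the rhythm on to other genes, rose together. Tef ran from 7.44 to 7.85 in control hearts (median 7.68) and from 8.02 to 8.36 in CR hearts (median 8.23) and differed by 0.56 ± 0.075 (SE, adjusted p = 0.000109). Hlf differed by 0.48 ± 0.072 (SE, adjusted p = 0.000326) and Dbp by 0.47 ± 0.089 (SE, adjusted p = 0.00245). The groups were fully apart for Tef and Hlf and overlapped for Dbp. Wee1, a cell cycle kinase, rose by 0.61 ± 0.16 (SE, adjusted p = 0.0210) and Tspan4, a membrane tetraspanin, by 0.29 ± 0.068 (SE, adjusted p = 0.0108). Tfrc and Alas1 are also on this list, and without them 5 members were called. With the spread of all 14 groups 6 were called.

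**Figure D4:**
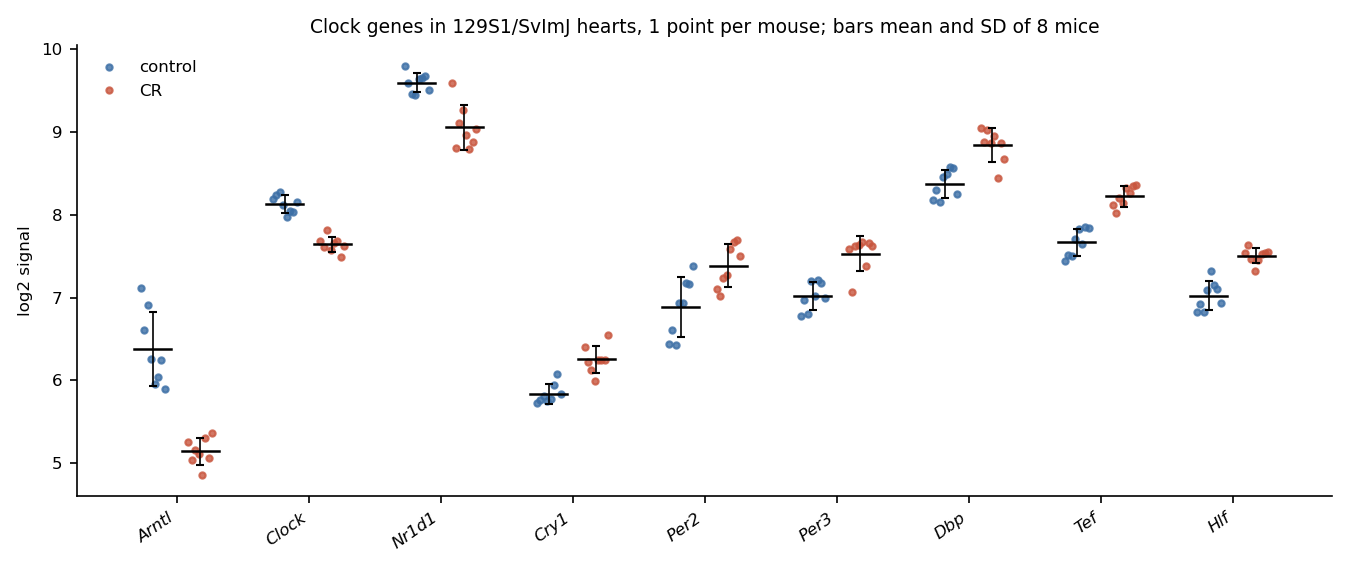
Log2 signals (y axis) of core clock genes and of the output factors Dbp, Tef and Hlf in 129S1/SvImJ hearts, 1 point per mouse, with the mean and SD of 8 control and 8 CR mice. Arntl and Clock are lower in every CR heart, Tef and Hlf are higher in every CR heart, and Nr1d1, Cry1, Per2, Per3 and Dbp overlap.

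Arntl and Clock act through the E-box, CACGTG, which was found in the same windows for 6 of 17 clock output genes (35.3%), 3 of 12 core clock genes (25%) and 8.11% of all genes. Of the genes called higher 12% held it, and of those called lower 9.43%. The letters read the same on both strands. Stretches of 3 called clock genes that hold it are given below in capitals, 5′ to 3′ along the gene, because their signal was higher where that of Arntl and Clock was lower.
Cry1, chr10:85185085-85185138, minus strand: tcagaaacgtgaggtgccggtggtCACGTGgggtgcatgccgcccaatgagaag
Tef, chr15:81802522-81802575, plus strand: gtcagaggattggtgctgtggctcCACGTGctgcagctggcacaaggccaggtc
Tspan4, chr7:141476305-141476358, plus strand: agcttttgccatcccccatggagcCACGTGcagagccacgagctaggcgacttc
A second start of Tef has another match. Called genes of other lists hold the letters too, among them Tuba8, Tubb5 and Ppp1r3c, which rose, and Lipe, Slc27a1 and Bnip3, which fell.

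Many tubulins rose. Of 16 measured tubulin genes 7 rose and 0 fell, and the median was 0.26. Beside Tuba4a and Tuba8, the beta tubulin Tubb5 ran from 8.78 to 9.06 in control hearts (median 8.96) and from 9.17 to 9.85 in CR hearts (median 9.48) and rose by 0.56 ± 0.08 (SE, adjusted p = 0.000204). Tubg1, the gamma tubulin that seeds microtubules, rose by 0.55 ± 0.085 (SE, adjusted p = 0.000373) and Tubb6 by 0.41 ± 0.083 (SE, adjusted p = 0.00416). Tuba3b and borderline Tuba1a, at 0.51 and 0.27, are near copies of other alpha tubulins, and their probes may share signal. Tuba3b was dim in both groups, with means of 3.41 and 3.92 below the log2 signal of 5.16 under which genes were counted as dim. Tubb3 was at -0.28 and not called. Of 31 microtubule-associated, filament and costamere genes 3 rose and 2 fell (median -0.018). The tubulin tyrosine ligase Ttl rose by 0.26 ± 0.057 (SE, adjusted p = 0.00739), the polyglutamylase Ttll1 by 0.45 ± 0.092 (SE, adjusted p = 0.00481) and the costamere protein Dtna by 0.45 ± 0.07 (SE, adjusted p = 0.000373). The tubulin chaperone Tbce fell by 0.31 ± 0.068 (SE, adjusted p = 0.00656) and the tubulin deacetylase Hdac6, a borderline call, fell by 0.41 ± 0.11 (SE, adjusted p = 0.0247).

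Most sarcomere genes were not called, although the share called was above that of all genes in both directions. Of 32 genes 3 rose and 2 fell (median -0.045). Those that rose were Fbxl22, Fhl2 (0.46 ± 0.074 SE, adjusted p = 0.000630) and Lmod3 (0.56 ± 0.093 SE, adjusted p = 0.000750), which act in assembly and signalling at the thin filament and the Z-disc. Mybpc2, the fast skeletal form of myosin-binding protein C, fell by 0.63 ± 0.13 (SE, adjusted p = 0.00601) and Myot, a Z-disc protein, fell by 0.53 ± 0.13 (SE, adjusted p = 0.0152). Myot and Lmod3 each had a control heart, replicate 8, far from the other 7.

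Excitation and calcium genes that were called mostly rose. Of 21 potassium channel genes 2 rose and 1 fell (median 0.048). Kcnq1, the pore that Kcne1 modulates, ran from 7.10 to 7.58 in control hearts (median 7.31) and from 7.39 to 7.89 in CR hearts (median 7.77) and rose by 0.43 ± 0.08 (SE, adjusted p = 0.00208), and the silent subunit Kcnv2 fell by 0.51 ± 0.13 (SE, adjusted p = 0.0177). Of 17 sodium, calcium, gap junction and pacemaker genes 2 rose, the pacemaker channel Hcn2 (0.50 ± 0.10 SE, adjusted p = 0.00532) and the sodium pump subunit Atp1b1 (0.41 ± 0.084 SE, adjusted p = 0.00479), and 0 fell (median 0.023). Of 28 calcium handling genes 5 rose and 0 fell (median 0.063). Dhrs7c, a reductase of the sarcoplasmic reticulum that affects calcium release, ran from 7.86 to 8.32 in control hearts (median 8.05) and from 8.54 to 8.99 in CR hearts (median 8.65) and rose by 0.62 ± 0.073 (SE, adjusted p = 2.66e-05). Lrrc10, a cardiac leucine-rich repeat protein, rose by 0.71 ± 0.11 (SE, adjusted p = 0.000444), the kinase Camk2d by 0.36 ± 0.064 (SE, adjusted p = 0.00145), the calcium store protein Casq2 by 0.40 ± 0.082 (SE, adjusted p = 0.00412) and Jph2, a borderline call, by 0.34 ± 0.088 (SE, adjusted p = 0.0235).

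Called members of adrenergic and cholinergic signalling fell. Of 20 genes 5 fell and 0 rose, although the median was 0.015. Grk5, a kinase that turns off beta-adrenergic receptors, ran from 7.83 to 8.24 in control hearts (median 7.96) and from 7.05 to 7.43 in CR hearts (median 7.27), a difference of -0.75 ± 0.077 (SE, adjusted p = 5.92e-06) without overlap. Chrna2, a nicotinic receptor subunit, ran from 4.79 to 5.31 in control hearts (median 5.19) and from 4.24 to 5.04 in CR hearts (median 4.47) and fell by 0.59 ± 0.11 (SE, adjusted p = 0.00171), with both group means, 5.13 and 4.54, below the 5.16 that marks dim genes. The alpha-1B receptor Adra1b fell by 0.41 ± 0.094 (SE, adjusted p = 0.0106) and the phosphodiesterase Pde3a fell by 0.43 ± 0.10 (SE, adjusted p = 0.0141). The kinase anchor Akap1 fell by 0.28 ± 0.082 (SE, adjusted p = 0.0469), a borderline call.

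Called genes of protein and organelle turnover were mostly lower. Of 39 autophagy and lysosome genes 7 fell and 0 rose (median -0.058). Bnip3, a receptor for the removal of mitochondria, ran from 10.59 to 11.26 in control hearts (median 10.85) and from 9.63 to 10.30 in CR hearts (median 9.94), a difference of -0.89 ± 0.10 (SE, adjusted p = 2.43e-05). Sqstm1 (p62), the cargo receptor that NRF2 also induces, ran from 11.45 to 11.62 in control hearts (median 11.57) and from 10.57 to 11.22 in CR hearts (median 10.71), a difference of -0.72 ± 0.093 (SE, adjusted p = 6.37e-05). Neither overlapped. Atg13, of the kinase complex that starts autophagy, fell by 0.68 ± 0.10 (SE, adjusted p = 0.000369), and Wdr45 fell by 0.47 ± 0.068 (SE, adjusted p = 0.000207). Of 30 FoxO, sestrin and atrophy genes 6 fell and 1 rose (median -0.13). The muscle ubiquitin ligase Fbxo32 (atrogin-1) fell by 0.46 ± 0.11 (SE, adjusted p = 0.0134) and Trim54 (MuRF3) fell by 0.39 ± 0.077 (SE, adjusted p = 0.00354), while Trim55 (MuRF2) rose by 0.47 ± 0.078 (SE, adjusted p = 0.000781).

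Of 37 proteasome genes 5 fell and 2 rose, with a median of 0.055. Psmd11 (-0.35 ± 0.057 SE, adjusted p = 0.000696) and Psme4 (-0.36 ± 0.079 SE, adjusted p = 0.00686), which sit in the regulators that cap the core, fell, and Psmb2 (0.20) and Psma2 (0.26), which belong to the core, rose as borderline calls. Heat shock chaperones held 2 higher and 0 lower of 26 (median -0.047), with the cochaperone Stip1 at 0.41 ± 0.068 (SE, adjusted p = 0.000684). Of 28 endoplasmic reticulum chaperone genes 3 rose, Sdf2l1, Pdia6 and Selenos, all of them borderline, and 1 fell, the stress factor Xbp1 at -0.25 ± 0.054 (SE, adjusted p = 0.00618) (median 0.033). Of 26 amino acid response genes 3 rose, among them the stress factor Ddit3 (0.33 ± 0.069 SE, adjusted p = 0.00553) and the cysteine-making enzyme Cth (0.51 ± 0.11 SE, adjusted p = 0.00592), and 1, Vldlr, fell (median 0.046).

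Most members of the hormone and energy signalling lists were not called, but each list held a larger share of called genes than all genes did. Of 35 insulin, IGF and growth hormone genes 3 rose and 2 fell (median -0.067). The kinase Akt1 rose by 0.49 ± 0.07 (SE, adjusted p = 0.000204), Cish by 0.48 ± 0.12 (SE, adjusted p = 0.0199) and the growth hormone receptor Ghr, a borderline call, by 0.24 ± 0.066 (SE, adjusted p = 0.0306). The insulin receptor Insr fell by 0.37 ± 0.10 (SE, adjusted p = 0.0362), also a borderline call. Of 25 AMP kinase, sirtuin and NAD genes 4 rose and 1 fell (median 0.041), with Nmrk2, a muscle kinase of NAD salvage, at 0.70 ± 0.14 (SE, adjusted p = 0.00352). Of 26 glucocorticoid response genes 3 fell and 0 rose (median -0.13), but these were Pdk4, Angptl4 and Errfi1 (-0.42 ± 0.081 SE, adjusted p = 0.00275), and Pdk4 and Angptl4 are PPAR-alpha targets too. Of 18 thyroid hormone response genes 2 rose and 3 fell (median -0.074), with the receptor Thra at -0.35 ± 0.059 (SE, adjusted p = 0.000895) and the hormone transporter Slc16a10 at 0.48 ± 0.08 (SE, adjusted p = 0.000735).

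Stress and growth genes moved in both directions. Of 22 cardiac stress and fetal programme genes 4 fell and 2 rose (median -0.14). Ccn2 (CTGF), a matrix signal of stressed heart, ran from 10.62 to 11.46 in control hearts (median 10.87) and from 9.73 to 10.38 in CR hearts (median 9.93), a difference of -0.83 ± 0.12 (SE, adjusted p = 0.000192), and its relative Ccn1 fell by 0.61 ± 0.084 (SE, adjusted p = 0.000137). Those that rose were Acta2 and Fhl2. Of 25 immediate early genes 2 fell, Myc (-0.58 ± 0.12 SE, adjusted p = 0.00458) and borderline Atf3 (-0.72 ± 0.19 SE, adjusted p = 0.0251), 0 rose and 21 lay below 0 (median -0.14). Of 42 cell cycle genes 3 rose and 1 fell (median 0.033), with cyclin D1 (Ccnd1) at 0.60 ± 0.12 (SE, adjusted p = 0.00336).

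Matrix genes that were called mostly fell. Of 18 basement membrane genes 2 fell and 0 rose (median -0.11), the paired collagen IV chains Col4a1 (-0.43 ± 0.077 SE, adjusted p = 0.00170) and Col4a2 (-0.42 ± 0.084 SE, adjusted p = 0.00367), both with a CR heart, replicate 2, far below the other 7. Of 39 interstitial matrix genes 5 fell and 2 rose (median -0.075). The collagen crosslinker Lox fell by 0.43 ± 0.098 (SE, adjusted p = 0.00951), the protease Mmp14 fell by 0.34 ± 0.07 (SE, adjusted p = 0.00465) and the elastic fibre genes Eln fell by 0.29 ± 0.067 (SE, adjusted p = 0.0116) and Fbln5 fell by 0.32 ± 0.07 (SE, adjusted p = 0.00729), while Timp3, a protease inhibitor, rose by 0.41 ± 0.096 (SE, adjusted p = 0.0106). In the fit over 14 groups 0 of these members were called lower. Fibroblast markers, measured in the same hearts, had 0 higher and 0 lower of 10.

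Some endothelial and other vascular genes were lower. Of 34 vascular genes 6 fell and 0 rose (median -0.058), and with the spread of all 14 groups 1 was called lower. Cldn5, the claudin of endothelial tight junctions, ran from 7.99 to 8.81 in control hearts (median 8.23) and from 7.30 to 7.83 in CR hearts (median 7.59), a difference of -0.71 ± 0.11 (SE, adjusted p = 0.000356) without overlap. Cdh5, the cadherin of endothelial junctions, fell by 0.46 ± 0.085 (SE, adjusted p = 0.00212), and the vessel growth factor Angpt1 fell by 0.67 ± 0.16 (SE, adjusted p = 0.0120). Of 10 endothelial markers 6 were called lower, and their mean log2 signal ran from 8.92 to 9.23 in control hearts and from 8.67 to 8.85 in CR hearts, with no overlap. Cldn5, Cdh5, Tie1 and borderline Kdr were called lower and are on both lists, so the 2 counts are not separate evidence. Pecam1 (-0.17), Tek (-0.16), Egfl7 (-0.072) and Emcn (0.06) were not called, and with the spread of all 14 groups 2 markers were. Fabp4 is itself among these markers. Rnase1, Car4 and the collagen IV genes are also made by endothelium. The part that the endothelial share of the heart has in the falls of these genes was not tested.

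Most members of the immune lists were not called. Lower calls made up 5.26% of the interferon response list, against 2.94% of all genes. Higher calls made up 5% of the antigen presentation and complement list and 10.7% of the chemokine, cytokine and adhesion list, against 3.88%. Of 38 interferon response genes 2 fell, Iigp1 (-1.04 ± 0.18 SE, adjusted p = 0.000957), a GTPase that acts on intracellular parasites, and Rsad2 (-0.35 ± 0.082 SE, adjusted p = 0.0118), and 0 rose (median -0.057). The interferon response element was found before the start of 13 of 28 members (46.4%) and of 3.4% of all genes. Of 20 antigen presentation and complement genes 1 rose, C1qb (0.42 ± 0.084 SE, adjusted p = 0.00417), and 0 fell (median -0.098). Of 28 chemokine, cytokine and adhesion genes 3 rose and 1 fell (median 0.014), with Il33 at 0.50 ± 0.091 (SE, adjusted p = 0.00157), Vcam1 at 0.42 ± 0.086 (SE, adjusted p = 0.00482) and Tgfb2 at -0.49 ± 0.11 (SE, adjusted p = 0.0111).

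Some markers of tissue macrophages were higher. Of 11 markers 3 rose and 0 fell (median 0.15), and their mean log2 signal ran from 6.38 to 6.58 in control hearts and 6.50 to 6.89 in CR hearts. Lyve1, which binds hyaluronan on resident macrophages and lymphatic vessels, ran from 6.92 to 7.82 in control hearts (median 7.52) and from 8.08 to 8.66 in CR hearts (median 8.28), a difference of 0.84 ± 0.11 (SE, adjusted p = 5.61e-05) without overlap. Folr2 and Cd68 rose by 0.48 ± 0.12 (SE, adjusted p = 0.0154) and 0.34 ± 0.087 (SE, adjusted p = 0.0207). The other 8 were not called, with Csf1r (-0.079), Mertk (-0.072) and Cx3cr1 (-0.12) below 0. With the spread of all 14 groups 1 marker was called, and 2 were without control replicate 8 and CR replicate 2. The other lymphatic markers were not called, with Prox1 at 0.053 and Flt4 at -0.11. Retnla, C1qb and Cbr2 rose beside them, and how much of these rises comes with the macrophage share was not tested.

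Of the other marker lists, ventricular, atrial, conduction, lymphocyte, neutrophil, red blood cell, skeletal muscle and mesothelial markers held 0 called genes. Smooth muscle and pericyte markers held Acta2 higher and Rgs5 (-0.22, adjusted p = 0.0287, borderline) lower of 11, with a list median of -0.15 and mean signals of 8.14 to 8.46 in control hearts and 8.00 to 8.38 in CR hearts. White adipocyte markers held Car3 higher and Lipe and Fabp4 lower of 10, with mean signals of 6.23 to 6.70 and 6.18 to 6.63, and brown adipocyte markers held Ppargc1a higher and Cidea lower of 8. Of the Schwann cell and neuron markers Uchl1 was higher (0.26, adjusted p = 0.0276, borderline).

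The remaining lists were small. Carbonic anhydrases, which interconvert carbon dioxide and bicarbonate, changed by isoform: of 14 pH genes 4 rose and 1 fell (median -0.019). Car14, the membrane form of cardiomyocytes, ran from 8.77 to 9.08 in control hearts (median 8.94) and from 9.49 to 10.14 in CR hearts (median 9.82) and rose by 0.87 ± 0.081 (SE, adjusted p = 2.55e-06). Car4, a membrane form found on capillaries, ran from 9.23 to 9.62 in control hearts (median 9.41) and from 8.13 to 9.11 in CR hearts (median 8.40) and fell by 0.87 ± 0.12 (SE, adjusted p = 0.000176). Neither overlapped. Of 28 retinoid genes Retsat, a retinol saturase, fell by 0.97 ± 0.10 (SE, adjusted p = 9.48e-06) and the retinoic acid receptor Rarb rose by 0.55 ± 0.067 (SE, adjusted p = 3.5e-05) (median -0.023). Of 21 polyamine, one-carbon, creatine and nucleotide genes 3 rose, Adk (0.32 ± 0.054 SE, adjusted p = 0.000840), Ppat (0.52 ± 0.091 SE, adjusted p = 0.00121) and borderline Ckb, and 0 fell (median 0.11).

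The response of 129S1/SvImJ was then set against that of the other 6 strains, as the difference between its CR effect and the mean of their effects. In 30 genes (0.15% of genes tested) this difference passed an adjusted p of 0.05 (limma), 10 of them above 0. All 30 were called in 129S1/SvImJ, and in 29 its effect was the largest of the 7 strains in its direction, Tuba4a being the exception. The 30 genes were picked by this difference, and that choice favours an outermost place or a larger shift than the mean. The ration of CR mice also differed between strains, as did that of control mice in Balbc/J, so strain and ration cannot be told apart here. Kcne1 had the smallest p, with a difference of 1.22 ± 0.18 (SE, adjusted p = 1.67e-05). Its effect was 1.42 in 129S1/SvImJ and between -0.20 (CBA/J) and 0.49 (C57BL6/J) elsewhere. Wfdc1 differed by 0.74 ± 0.12 (adjusted p = 3.88e-05).

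PPAR-alpha targets made up 5 of the 30. Pdk4 differed by -1.37 ± 0.24 (adjusted p = 0.000496), and its effects elsewhere ran from -0.88 in B6C3F1/J to 0.34 in CBA/J. Angptl4 differed by -1.49 ± 0.26 (adjusted p = 0.000694) with effects from -0.81 in C57BL6/J to 0.93 in CBA/J. Ucp3 differed by -1.26 (adjusted p = 0.00314), Acot1 by -1.17 (adjusted p = 0.000938) and Acot2 by -0.87 (adjusted p = 0.0220). The median effect over the 26 targets was -0.31 in 129S1/SvImJ and -0.12 for the mean of the others. Strain by strain it was -0.42 in B6C3F1/J, below that of 129S1/SvImJ, -0.25 in C57BL6/J, -0.12 in DBA/2J, -0.075 in C3H/HeJ, 0.012 in CBA/J and 0.075 in Balbc/J.

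The clock genes Arntl (-1.04, adjusted p = 0.00540) and Dbp (0.63, adjusted p = 0.00492) also differed. Dbp rose in 129S1/SvImJ, and its effect in the others ran from -0.50 in CBA/J to 0.24 in C57BL6/J. Further members were Gclm, Aox1, Bnip3, Wdr45, Slc40a1, Cldn5, Rnase1, Abhd1, Tmx2 and Tuba4a, each with a larger shift in 129S1/SvImJ than the mean of the others. Ypel3, a gene of the yippee family (-0.51, adjusted p = 0.00140), and the linker histone H1f2 (-0.47, adjusted p = 0.00271) were on none of the lists, and both fell in 129S1/SvImJ, with effects of -0.68 and -0.64. Tfrc, whose difference from the others was 1.19 ± 0.33 (adjusted p = 0.185), Alas1 (0.67, adjusted p = 0.375) and Tuba8 (0.26, adjusted p = 0.999) did not pass. With the odd DBA/2J array kept in, 9 of the differences passed, and with weights per array 152. Without CBA/J control replicate 1, a setting chosen after seeing the data, 45 passed, 14 of them above 0, and all 30 were among them. The CBA/J effects given above include that array, and without it they were -0.17 for Kcne1, 0.18 for Pdk4, 1.06 for Angptl4 and -0.60 for Dbp.

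**Figure D5:**
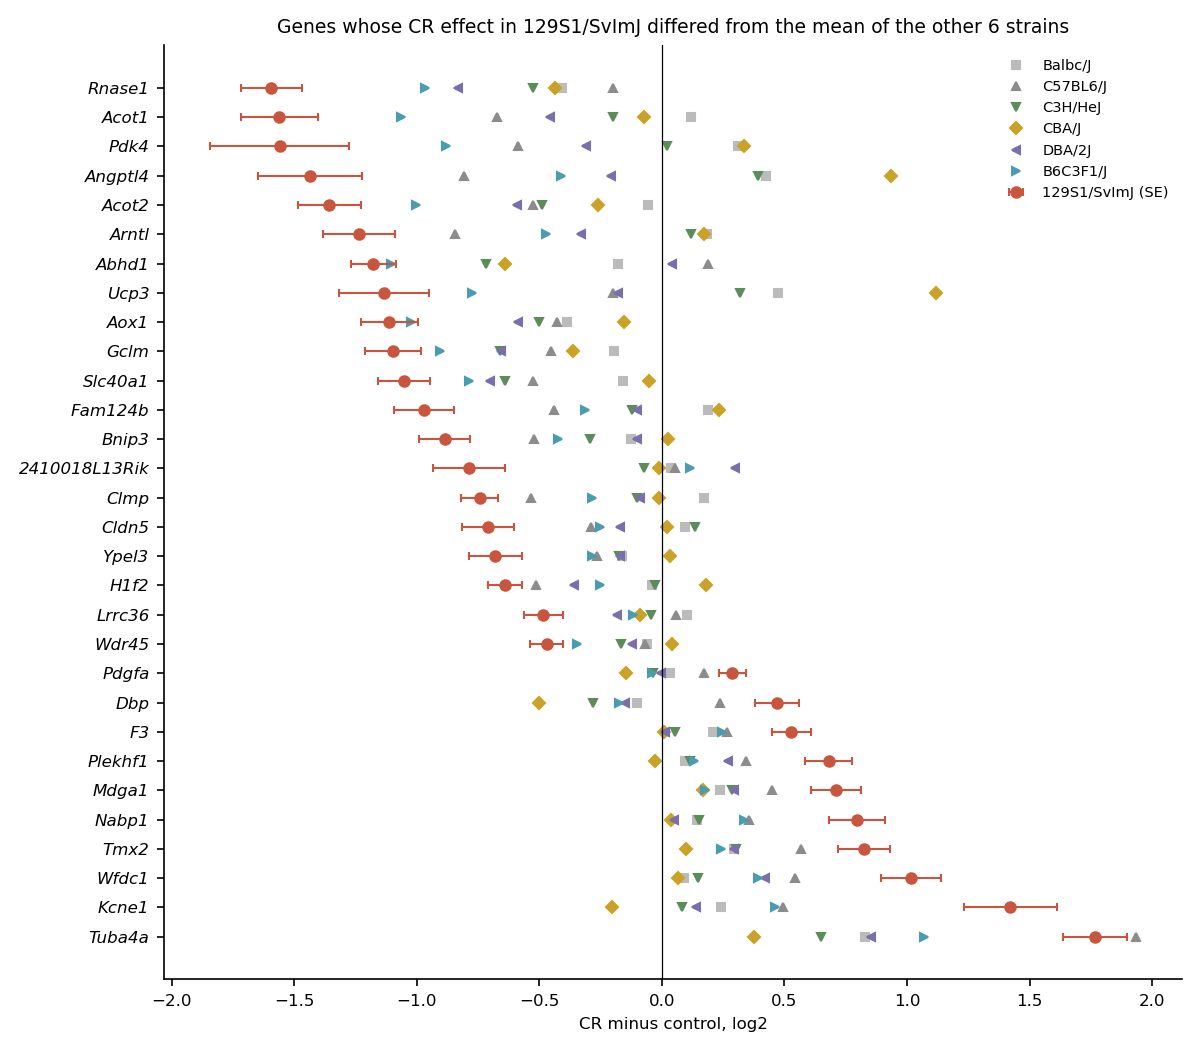
CR minus control on the log2 scale (x axis) in 129S1/SvImJ (red circles, with the SE of its fit) and in each of the other 6 strains (other symbols) for the 30 genes whose effect differed from the mean of the others. The red circle is the outermost symbol in its direction for 29 genes, and for Tuba4a C57BL6/J lies farther out at 1.93. The choice of genes by this difference favours such a place.

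C57BL6/J was compared on its own because its CR mice shared the extra cut in food. In 10 genes (0.0502%) the effects of the strains differed, and the difference was above 0 in 4 of them. Abhd1 differed by -1.37 ± 0.22 (adjusted p = 0.000234), being -1.18 in 129S1/SvImJ and 0.19 in C57BL6/J. Acta2 differed by 1.78 ± 0.39 (adjusted p = 0.0362), with effects of 1.37 and -0.41. Cnn2, a calponin of smooth muscle and other cells, differed by 0.70 (adjusted p = 0.0274). Lrrc10 rose in 129S1/SvImJ by 0.71 and its effect in C57BL6/J was 1.80, a difference of -1.09 (adjusted p = 0.0274). Cited2, a transcription cofactor (-0.70, adjusted p = 0.0160), and Pik3ip1, an inhibitor of PI3 kinase (-0.79, adjusted p = 0.0258), also differed. The count was 1 with the odd DBA/2J array kept in, 17 without dim genes, 19 without CBA/J control replicate 1, 22 with the replicate number as a block and 1614 with weights per array, so it is not settled. Atrial markers had a median effect of -1.55 in C57BL6/J and 0.039 in 129S1/SvImJ, and of 0.78 in B6C3F1/J, 0.50 in CBA/J and 0.44 in C3H/HeJ. In C57BL6/J the median was also low for mesothelial (-0.65), white fat (-0.60), brown fat (-0.48) and fibroblast markers (-0.40), against -0.072, -0.021, 0.049 and -0.079 in 129S1/SvImJ. The part of these markers in the differences between strains was not tested.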

How the data were processed

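Heart RNA of 1 mouse per array was hybridised to Affymetrix Mouse Gene 1.0 ST arrays, 8 per group, after 5 µg of total RNA had been labelled with biotin. The authors summarised each array to gene level in Affymetrix Expression Console with RMA-Sketch, which corrects background, quantile normalises and takes the log2. The deposited log2 signals were used as they are. Software versions were not given in the sources used here, nor was the hour of collection. Array signals have no depth of reads, so precision is limited by how many arrays there are.

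Of 35556 probe sets, 21789 carried 1 gene symbol in the platform annotation, 1621 several and 12146 none. Gene IDs matched RefSeq for 21698, and no symbol needed an update. The brightest of a gene's probe sets over all arrays was kept (999 genes had several), which left 19938 genes. CR was compared with control in limma 3.58.1 (R 4.3.3), lmFit and eBayes on the 16 arrays of the strain, with Benjamini-Hochberg adjustment over all genes and an adjusted p of 0.05 as the threshold. The difference between strains came from 1 fit of 14 groups on the 111 arrays left without the odd DBA/2J array. Scripts were tested on simulated data. Arrays of a group were the replicates. No array pair held identical values. Same-numbered control and CR arrays deviated with correlations of 0.00897 to 0.229, of which 2 of 8 were over 0.1, so the numbers were not taken to pair mice. Per2 was nonetheless lower at low than at high replicate numbers in both groups.

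The members, the 51 function lists and the 16 marker lists were chosen with earlier results of these data known. Genes were named by a rule: the 15 largest rises and falls, up to 5 called members per list with the smallest p, the genes the study took to PCR and Tuba4a, and the 8 smallest adjusted p of each strain contrast. Other members, among them those not called and Steap3, Slc11a2, Aco1, Slc25a28, Hmox1, Gsr, Srxn1, Nqo1, Wee1, Tspan4, Per2, Mrps22, Abhd5, Dgat2, Fitm1, Plin5, Txnip, Tuba1a, Tuba3b and the smaller glucose genes, were named after their values were seen. Alternatives were another quantile normalization, centring, a filter at the 40th percentile of signal, other rules for probe sets, array weights, other variance models, the methods' t-test, a replicate block and leaving arrays out. Figures were drawn with matplotlib 3.10.9.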

Additional observations from a re-analysis of the deposited data

Results flagged for a closer look

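Among the 214 named genes, 32 of 428 groups of 8 hearts (7.48%) held a heart whose log2 signal lay far from the rest, by the gap to its nearest neighbour over the range of the group. The rule is built to flag about 1 in 20 groups of independent, normally distributed values. The groups here share hearts, so the 2 rates cannot be compared strictly. Control replicate 8 was the far heart in 12 of the 32 groups and CR replicate 2 in 7, and no explanation was weighed. Control replicate 8 was highest for Ccn2 (11.46), Dtna (8.27), Fhl2 (11.52), Myot (10.45), Slc16a1 (10.77) and Tgfb2 (7.532). It was lowest for Kcne1 (4.968), Kcnv2 (6.336), Lmod3 (8.191), Retnla (4.283), Tbx5 (7.562) and Ttll1 (6.77). CR replicate 2 was lowest for Col4a1 (6.425), Col4a2 (6.421), Cpt1a (8.136), Hk2 (8.244), Kcnq1 (7.389) and Per3 (7.064) and highest for Dhrs7c (8.985).

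The other far hearts were spread over arrays. Control replicate 1 was highest for Cdkn1b (8.693) and Pnpla2 (10.93) and lowest for Gbe1 (8.266) and Ghr (9.691), and control replicate 2 was highest for Psph (6.569). CR replicate 1 was lowest for Cish (7.302) and Prkag1 (9.951). CR replicate 4 was lowest for Ccne2 (4.441) and highest for Retnla (7.21), CR replicate 5 was lowest for Slc16a7 (6.067), CR replicate 6 for Abcd2 (6.483) and Scd2 (6.737), and CR replicate 8 was highest for Cth (6.551).

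The CR effect of 129S1/SvImJ differed from the mean effect of the other 6 strains (test of the difference in limma) below 0 for Acot1 (-1.169), Acot2 (-0.8678), Angptl4 (-1.492), Pdk4 (-1.373) and Ucp3 (-1.258), all PPAR-alpha targets. It differed below 0 as well for Abhd1 (-0.7766), Aox1 (-0.5978), Arntl (-1.039), Bnip3 (-0.6458), Cldn5 (-0.6324), Gclm (-0.5575), H1f2 (-0.4712), Lrrc36 (-0.4385), Rnase1 (-1.032), Slc40a1 (-0.5759), Wdr45 (-0.3494) and Ypel3 (-0.5081). It differed above 0 for Dbp (0.6329), Kcne1 (1.219), Tmx2 (0.5236), Tuba4a (0.8153) and Wfdc1 (0.7414). Against C57BL6/J alone it differed for Abhd1 (-1.367), Cited2 (-0.7033), Lrrc10 (-1.089), Lrrc36 (-0.5423), Pik3ip1 (-0.7898) and Rnase1 (-1.395) below 0 and for Acta2 (1.775) and Cnn2 (0.6986) above 0. These values are log2 differences between effects.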

How the results depend on the processing

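None of the 204 named genes that were called changed direction under any setting tried. In named genes not called, a change of sign was counted only where the other setting called the gene. The 1361 called genes became 459 (282 higher, 177 lower) when the variance was pooled over all 14 groups, of which 443 were shared. Without dim genes 1950 were called (1069 higher, 881 lower). The other settings that leave no array out gave 1334 to 1788 genes. Leaving out 1 array gave 1027 (CR replicate 3) to 1521 genes (CR replicate 6), 563 to 893 of them higher and 451 to 628 lower. The methods' t-test called 1386 after adjustment and 2104 at its own unadjusted threshold. With control replicate 8 and CR replicate 2 both left out, a setting chosen after seeing the data, 1114 were called. With the replicate number as a block 1334 were called, which changed no count by more than 1.5 times except that against C57BL6/J. In that check of pairing 4 of 8 control arrays correlated best with the CR array of their own number.

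The genes that differed from the mean of the other 6 strains numbered 30, and 24 to 45 under all settings but 2: they were 9 with the odd DBA/2J array kept in and 152 with array weights. Against C57BL6/J the 10 genes became 1 with all 112 arrays, 17 without dim genes, 19 without CBA/J control replicate 1 (chosen after seeing the data), 22 with the replicate block and 1614 with array weights, and the cause was not tested. Of 204 called named genes 91 lost the call in the fit over 14 groups, 27 when some 1 array was left out (51 of 261 with all called list members) and 16 without both arrays named above. The 27 were Akap1, Atf3, Car2, Cdkn1b, Ckb, Ghr, Glrx, Hdac6, Hspb2, Insr, Jph2, Kdr, Mcm3, Ndufs6, Pdia6, Pex10, Ppargc1b, Prkag1, Psma2, Psmb2, Psph, Rgs5, Rpl6, Sdf2l1, Selenos, Tsc2 and Uchl1. Dim genes, under a log2 signal of about 5.16, lie close to background, where differences are compressed.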
